A study of Mus musculus with 16 samples.

Results

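The 8 genes described here are the corticosteroid receptors Nr3c1 and Nr3c2, the steroid-activating enzyme Hsd11b1, and 5 genes known as targets of these receptors, Sgk1, Fkbp5, Tsc22d3, Zbtb16 and Klf9. They were taken by symbol from the RefSeq accession that each array probe carries, and the brightest probe stood for a gene. They are 8 of 21154 genes with a named probe, and all 8 exceeded background on each of the 16 arrays and so entered the test of 14060 genes. Of these, 7 had 1 probe, whereas Nr3c1 had 2. The series concerns mineralocorticoid action in the heart during lactation, and the question here was how transcripts for corticosteroid reception and response in the ventricle compare between lactating and nulliparous mice of both Npr1 genotypes. Npr1 encodes a guanylyl cyclase that binds the natriuretic peptides made by the heart.

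RNA came from ventricles of female mice in 4 groups, namely lactating Npr1-/-, lactating Npr1+/+, nulliparous Npr1-/- and nulliparous Npr1+/+ mice, with 4 independent mice and 4 one-colour Agilent arrays per group. Lactating mice were at 2 weeks of lactation. The labels name no drug or other allele, and give no strain, age, hour of sampling or way in which the Npr1 allele was made or where it is deleted, so the knockout is described only by its genotype. Below, Npr1-/- mice are called knockout, Npr1+/+ mice wild-type, and each mouse is named by its replicate number.

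Levels are the log2 of the processed signal relative to the 75th percentile of its array, so a level of 0 equals that percentile and a difference of 1 is a 2-fold difference. This percentile stood at 278 to 347 signal units on lactating arrays and 165 to 284 on nulliparous arrays. The 284 was that of nulliparous knockout 4, and the next highest nulliparous value was 221, below every lactating array. Apart from that mouse, the scaling value itself thus differed between lactating and nulliparous arrays. All 10 cardiomyocyte markers checked, such as Myh6 and Tnnt2, were well above background on every array. The single probe of Npr1 was well above background on 9 of 16 arrays. Its level by genotype is not given here, so the genotype labels were not checked with it. Nulliparous knockout 4 stood apart from its group, with a first principal component score of 14.5, against -43.9 to -39.3 for the other nulliparous knockout arrays and 27.6 to 41.9 for lactating arrays. Replicates 1 and 2 of every group were on one slide and replicates 3 and 4 on the other, and each group kept its array positions on both slides, so position and group cannot be told apart.

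In mice the main circulating glucocorticoid is corticosterone. Inside cells it binds the glucocorticoid receptor, encoded by Nr3c1, and the mineralocorticoid receptor, encoded by Nr3c2, which is also the receptor of aldosterone. Both are held by chaperones of the Hsp90 system until a steroid binds, then move to the nucleus and act on target genes, often at an inverted repeat of AGAACA known as the glucocorticoid response element. Cardiomyocytes have both receptors and little of the enzyme that inactivates corticosterone, so cardiac mineralocorticoid receptors are largely occupied by glucocorticoid. Sgk1 encodes a kinase that regulates ion channels and transporters, Fkbp5 a co-chaperone that lowers the receptors' affinity for steroid, Tsc22d3 the leucine zipper protein GILZ, Zbtb16 the zinc finger repressor PLZF, and Klf9 a Krüppel-like transcription factor.

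Promoter windows from RefSeq (GRCm38.p6), 250 bases upstream of a gene's start, were found for 6 of the 8 genes in 13 windows, and Nr3c1 and Zbtb16 had none in the table. Both strands were searched for the response element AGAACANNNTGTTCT, for the short motif AGAACA that begins it, and for the E-box CACGTG, a motif bound by clock factors among others. The whole element lay in 3 of 32851 windows (0.00913%), and Sgk1 was 1 of the 3 genes. The short motif was in 16.1% of all windows and the E-box in 6.02%. Windows of Nr3c2, Hsd11b1 and Klf9 held none of the 3 motifs, which says only that those letters are not in these windows. Shown are the Sgk1 window with the whole element and, for Fkbp5 and Tsc22d3, the one window of each with a motif, since these are the genes whose promoters carry letters linked to the receptors or the clock. Capitals mark the motifs.
Sgk1, chr10:21993640-21993889, plus strand: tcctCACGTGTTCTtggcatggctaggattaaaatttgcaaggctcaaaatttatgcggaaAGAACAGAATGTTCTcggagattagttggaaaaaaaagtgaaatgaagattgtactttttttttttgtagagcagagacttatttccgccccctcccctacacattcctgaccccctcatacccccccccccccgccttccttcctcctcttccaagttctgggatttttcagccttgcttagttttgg
Fkbp5, chr17:28486150-28486399, minus strand: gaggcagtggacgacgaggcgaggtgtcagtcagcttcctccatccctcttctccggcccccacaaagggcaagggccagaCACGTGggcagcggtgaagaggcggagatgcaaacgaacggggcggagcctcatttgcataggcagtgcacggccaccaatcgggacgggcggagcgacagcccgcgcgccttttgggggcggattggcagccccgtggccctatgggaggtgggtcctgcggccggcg
Tsc22d3, chrX:140600523-140600772, minus strand: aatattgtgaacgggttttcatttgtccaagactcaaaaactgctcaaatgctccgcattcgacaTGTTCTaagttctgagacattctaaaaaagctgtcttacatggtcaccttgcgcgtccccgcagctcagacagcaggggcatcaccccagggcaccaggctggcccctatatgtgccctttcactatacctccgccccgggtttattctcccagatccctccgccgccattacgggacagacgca
In the Sgk1 window the whole element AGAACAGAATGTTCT begins 189 bases upstream of the start, and further upstream an E-box overlaps a short motif, read on the other strand, within CACGTGTTCT. Fkbp5 has an E-box 169 bases upstream and Tsc22d3 a short motif, also on the other strand, 185 bases upstream. Of the 6 windows of Sgk1 this is the one with the whole element, and Tsc22d3 has 3 windows. A match describes the sequence and is not evidence of a factor bound there.

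The mineralocorticoid receptor transcript was lower in wild-type lactation. In wild-type mice, Nr3c2 levels were -2.14, -2.87, -2.31 and -2.44 on lactating arrays 1 to 4, against -0.69, -0.79, -1.38 and -0.94 on nulliparous arrays 1 to 4. Every lactating array lay below every nulliparous one. Nr3c2 fell by 1.49 ± 0.29 (log2 difference ± standard error, SE; 2.81-fold) in wild-type lactation, with a limma adjusted p of 0.000981. In this comparison limma called 7070 of 14060 genes at an adjusted p under 0.05 (50.3%), of which 4467 were higher (31.8% of all tested) and 2603 lower (18.5%). With calls this frequent, the size of a difference and the separation of the arrays are given beside each call. The share of all tested genes whose groups separate is not given here. Separation thus describes a gene's arrays and does not set the gene apart from others.

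In knockout mice, Nr3c2 levels were -1.93, -0.86, -2.24 and -2.42 on lactating arrays, against -0.88, -1.12, -1.26 and -1.71 on nulliparous arrays. Lactating knockout 2 lay just above the highest nulliparous knockout array, and the other 3 lactating arrays lay below all 4 nulliparous ones. The difference of -0.62 ± 0.29 (adjusted p = 0.0977) was not called, and it was -0.96 (adjusted p = 0.00657) without lactating knockout 2 and -0.78 (adjusted p = 0.0479) without nulliparous knockout 4. In this comparison 6203 genes were called (44.1%), 3591 higher (25.5%) and 2612 lower (18.6%). The lactation difference of Nr3c2 was 0.87 ± 0.41 larger (less negative) in knockouts than in wild-types, an interaction that was not called (adjusted p = 0.786), so a difference between the genotypes was not shown. Within slides, Nr3c2 was lower in lactation on both, with log2 differences on slides 1 and 2 of -0.40 and -0.85 in knockouts and -1.76 and -1.21 in wild-types. Its signal was the dimmest of the 8, at 38.8 to 163 units, and with normexp background correction the wild-type difference was -0.89.

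The glucocorticoid receptor was called lower in lactation on 1 of its 2 probes. On the brighter probe, which stands for the gene, Nr3c1 levels were 4.64, 4.41, 4.60 and 4.52 on lactating knockout arrays, against 4.68, 4.65, 4.49 and 4.61 on nulliparous knockout arrays. In wild-types the same probe read 4.49, 4.43, 4.54 and 4.34 on lactating arrays, against 4.72, 4.69, 4.30 and 4.45 on nulliparous arrays. The groups overlapped throughout, and the log2 differences of -0.07 ± 0.10 in knockouts (adjusted p = 0.59) and -0.09 ± 0.10 in wild-types (adjusted p = 0.473) were not called. Quantile normalization gave -0.23 (adjusted p = 0.0328) in wild-types, and array weights -0.20 (adjusted p = 0.037).

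On the dimmer probe of Nr3c1, levels were 0.02, -0.31, -0.27 and -0.19 on lactating knockout arrays, against 1.23, 1.05, 1.14 and 0.09 on nulliparous knockout arrays. In wild-types this probe read -0.27, -0.37, -0.48 and -0.19 on lactating arrays, against 1.43, 1.39, 0.87 and 1.00 on nulliparous arrays. All lactating arrays lay below all nulliparous arrays of the same genotype, nulliparous knockout 4 by a small margin. In the same table, with this probe in place of the other, the log2 difference was -1.06 (adjusted p = 0.00169) in knockouts and -1.50 (adjusted p = 0.000132) in wild-types, and neither genotype comparison was called. Without nulliparous knockout 4 the knockout difference was -1.32.

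The gap between the 2 Nr3c1 probes within an array was 4.73 ± 0.11 (SD, n = 4) in lactating knockouts, against 3.73 ± 0.53 in nulliparous knockouts. It was 4.78 ± 0.20 in lactating wild-types, against 3.36 ± 0.08 in nulliparous wild-types. The groups did not overlap in either genotype, and an exact two-sided permutation test gave p = 0.0286 for each (0.0286 also after adjustment over both), the smallest that 70 arrangements allow. The dimmer probe's processed signal was 220 to 554 units, against 3706 to 8417 for the brighter one, and neither was saturated. Which transcripts each probe reads was not tested, so the size and the call of the Nr3c1 difference rest on the probe chosen. With the main scaling its sign was negative on both probes. Over the other settings, with both probes pooled, the Nr3c1 difference ranged from -1.32 to 0.11 in knockouts and from -1.50 to 0.09 in wild-types. The ends at -1.32 and -1.50 were on the dimmer probe, which alone stood for the gene in only 3 settings. No called Nr3c1 difference was positive, so its sign depended on the setting only among differences that were not called.

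**Figure D1:**
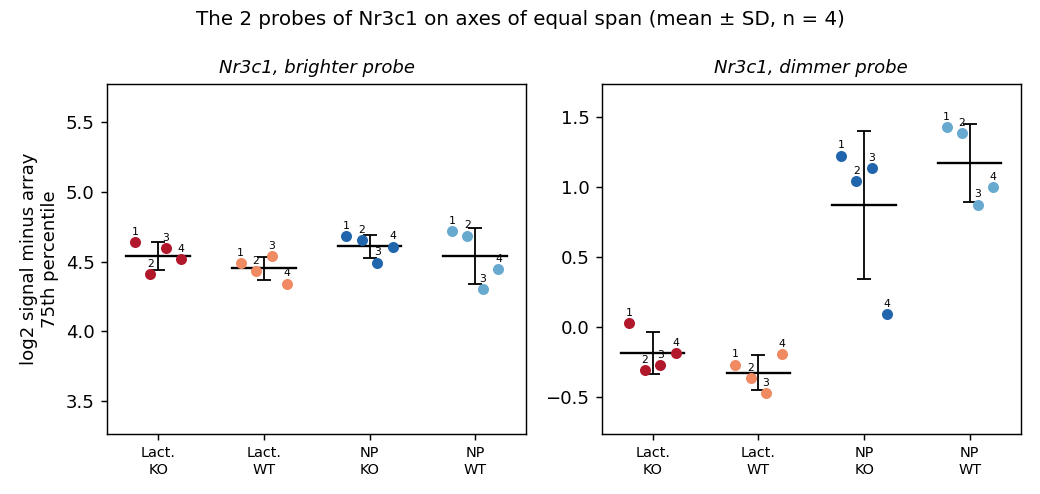
Levels of Nr3c1 (log2 signal relative to the 75th percentile) on its brighter probe (left) and dimmer probe (right) in 4 mice per group, numbered by replicate, with the mean ± SD as line and bar. Both axes span the same log2 range; the brighter probe overlaps between lactating (Lact.) and nulliparous (NP) mice, and the dimmer one is lower on all lactating arrays than on nulliparous arrays of the same genotype.

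Hsd11b1, whose product 11β-hydroxysteroid dehydrogenase type 1 regenerates active glucocorticoid inside cells, was higher in lactation in both genotypes. In knockouts its levels were 1.47, 1.02, 1.49 and 1.27 on lactating arrays, against 0.40, 0.64, 0.11 and 1.20 on nulliparous arrays. In wild-types they were 1.52, 1.63, 1.09 and 1.47 on lactating arrays, against 0.36, 0.61, 1.17 and 0.12 on nulliparous arrays. In each genotype 1 nulliparous mouse, knockout 4 and wild-type 3, reached into the range of the lactating mice, and the others lay below it. Hsd11b1 rose by 0.72 ± 0.24 in knockouts (1.65-fold, adjusted p = 0.0237) and by 0.86 ± 0.24 in wild-types (1.82-fold, adjusted p = 0.00791). The difference was positive on both slides, at 0.73 and 0.72 in knockouts and 1.09 and 0.64 in wild-types. The knockout call was lost without nulliparous knockout 1 (adjusted p = 0.0654) or 3 (0.0776) or lactating knockout 1 (0.0572) or 3 (0.0594), and without nulliparous knockout 4 the difference was 0.93 (adjusted p = 0.00314).

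The partner enzyme of Hsd11b1 went the other way. H6pd, which makes the cofactor that drives this reaction in the endoplasmic reticulum, fell by 0.54 ± 0.12 in knockout lactation (adjusted p = 0.00324) and by 0.34 ± 0.12 in wild-type lactation (adjusted p = 0.0309). Hsd11b2, whose product inactivates corticosterone, was well above background on 0 of 16 arrays. Of 13 genes of corticosteroid synthesis, conversion and transport, 5 passed the filter, and H6pd was the only one of them called in either lactation comparison. In wild-type lactation 0 of the 5 were called with median centring, without nulliparous wild-type 3, or on either slide alone. In knockout lactation 1 of the 5 was lower with median centring, and 0 were called on slide 2 alone. Cyp11b1 was above background on 2 arrays and the aldosterone synthase gene Cyp11b2 on 1.

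Klf9, a transcription factor that glucocorticoids induce in many tissues, was lower in lactation. Its levels in knockouts were 4.66, 4.00, 4.19 and 4.11 on lactating arrays, against 5.06, 5.22, 5.07 and 4.38 on nulliparous arrays. In wild-types they were 4.42, 4.41, 3.88 and 4.36 on lactating arrays, against 4.72, 4.73, 5.12 and 4.68 on nulliparous arrays. Wild-type groups did not overlap, and in knockouts the overlap came from lactating knockout 1 and nulliparous knockout 4. Klf9 fell by 0.69 ± 0.19 in knockouts (1.62-fold, adjusted p = 0.0103) and by 0.54 ± 0.19 in wild-types (1.46-fold, adjusted p = 0.0294). Without nulliparous knockout 4 the knockout difference was -0.88 (adjusted p = 0.000658). The wild-type call was lost in 6 other settings, with adjusted p in limma of 0.0551 to 0.268. It was lost without nulliparous wild-type 3 (-0.44, adjusted p = 0.0878) or lactating wild-type 3 (-0.42, adjusted p = 0.0991). It was also lost with arrays centred on their median (-0.36, adjusted p = 0.116), with normexp background correction, and on each slide alone.

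Tsc22d3, whose protein GILZ mediates anti-inflammatory actions of glucocorticoids, was lower in lactating knockouts. Its levels there were 5.46, 4.70, 4.94 and 5.21, against 6.0, 5.96, 5.65 and 5.64 on nulliparous knockout arrays. In wild-types it read 5.76, 5.0, 4.83 and 5.44 on lactating arrays, against 5.44, 5.42, 6.06 and 5.35 on nulliparous arrays. Knockout groups did not overlap, whereas lactating wild-types 1 and 4 lay among the nulliparous wild-types. Tsc22d3 fell by 0.74 ± 0.22 in knockouts (1.67-fold, adjusted p = 0.0145), and the wild-type difference of -0.31 ± 0.22 (adjusted p = 0.253) was not called. The difference between genotypes was -0.43 ± 0.31 (adjusted p = 0.854), and with arrays centred on their median the knockout difference was -0.56 (adjusted p = 0.0622).

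Zbtb16, which encodes the repressor PLZF and is among the genes that dexamethasone induces most in human cells, had the largest knockout lactation difference of the 8. In knockouts its levels were 5.57, 4.33, 4.71 and 4.68 on lactating arrays, against 6.63, 6.50, 5.60 and 5.85 on nulliparous arrays. In wild-types they were 5.92, 5.78, 3.71 and 5.65 on lactating arrays, against 5.89, 5.99, 6.51 and 5.15 on nulliparous arrays. Knockout groups were separated narrowly, by lactating knockout 1 and nulliparous knockout 3, and in wild-types lactating mouse 3 was far below all others. Zbtb16 fell by 1.32 ± 0.45 in knockouts (2.50-fold, adjusted p = 0.0278), and the wild-type difference of -0.62 ± 0.45 (adjusted p = 0.267) was not called. The knockout call was lost when any of 5 single mice was left out, namely nulliparous knockout 1 (adjusted p = 0.0804) or 2 (0.0742) and lactating knockout 2 (0.076), 3 (0.0577) or 4 (0.06).

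Fkbp5 varied more within groups than between them. Its levels were 3.46, 2.44, 1.94 and 2.22 on lactating knockout arrays, against 2.96, 3.55, 1.80 and 2.28 on nulliparous knockout arrays. In wild-types they were 3.55, 3.56, 1.83 and 3.36 on lactating arrays, against 1.62, 2.37, 4.04 and 1.81 on nulliparous arrays. Within each group the lowest and highest mouse differed by more than 1.5 on the log2 scale, and lactating wild-type 3 and nulliparous wild-type 3 stood at opposite ends of their groups. Neither the knockout difference of -0.13 ± 0.55 (adjusted p = 0.863) nor the wild-type difference of 0.61 ± 0.55 (adjusted p = 0.376) was called. On the 2 slides the wild-type difference had opposite signs, 1.56 (adjusted p = 0.025) on slide 1 and -0.33 on slide 2.

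Sgk1, the kinase gene induced by both receptors, was lowest in nulliparous wild-types, with 1 exception among them. Its levels were 4.03, 3.78, 3.49 and 4.01 on lactating knockout arrays, against 3.97, 4.14, 4.21 and 3.62 on nulliparous knockout arrays. In wild-types they were 3.64, 3.66, 3.5 and 3.66 on lactating arrays, against 2.33, 2.83, 4.17 and 2.61 on nulliparous arrays. Nulliparous wild-types 1, 2 and 4 lay below all 13 other mice, whereas nulliparous wild-type 3 was the second highest of the 16. The lactation difference was -0.16 ± 0.29 in knockouts (adjusted p = 0.689) and 0.63 ± 0.29 in wild-types (adjusted p = 0.088), and neither was called. Without nulliparous wild-type 3 the wild-type difference was 1.02 (adjusted p = 0.000539). It was also called with normexp background correction (0.67, adjusted p = 0.0389), with median centring (0.81, adjusted p = 0.0281) and on slide 1 alone (1.07, adjusted p = 0.00684), against 0.19 on slide 2.

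**Figure D2:**
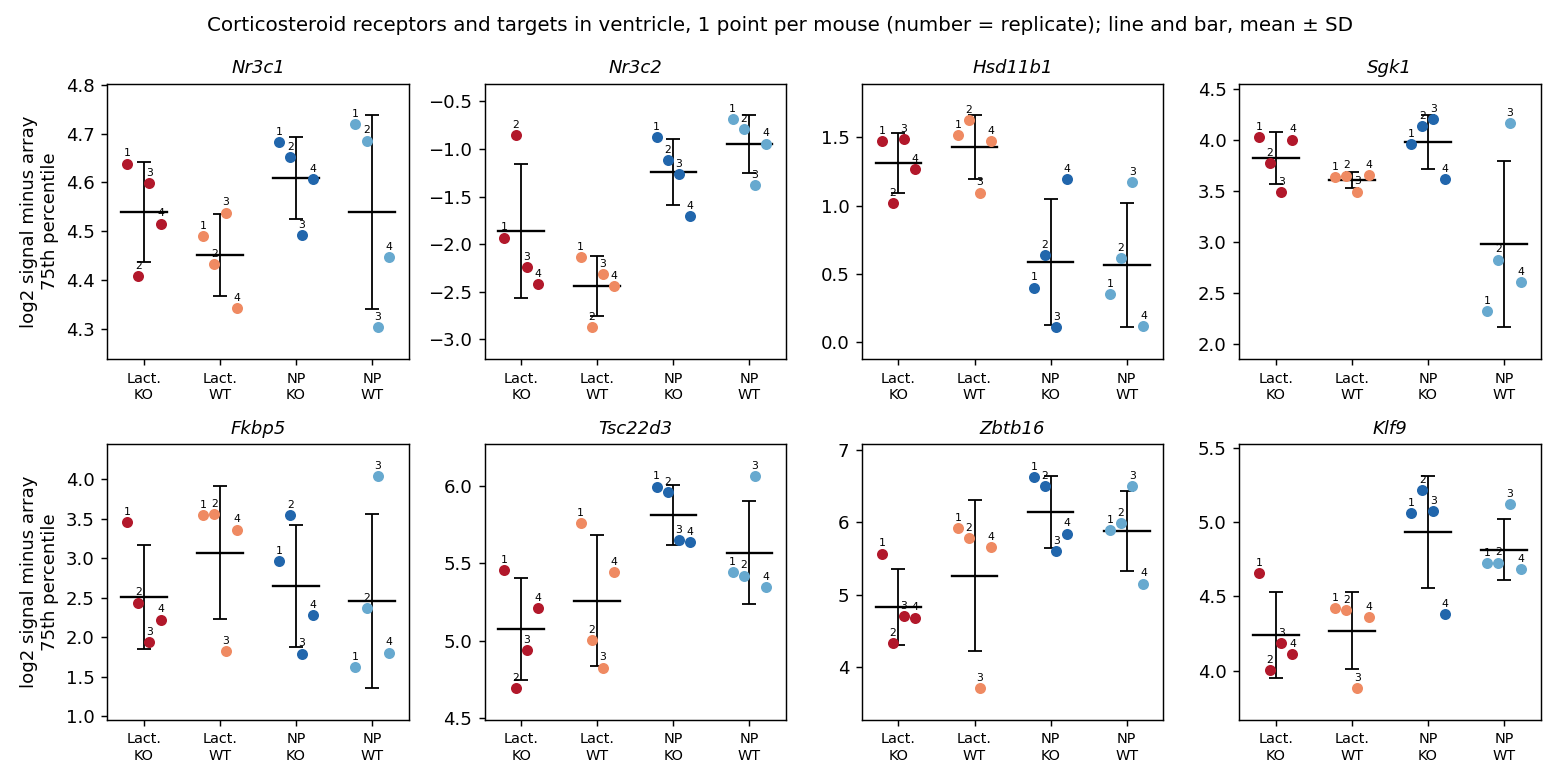
Levels of the 8 genes (log2 signal relative to the 75th percentile; each panel has its own axis range) in lactating knockout (Lact. KO), lactating wild-type (Lact. WT), nulliparous knockout (NP KO) and nulliparous wild-type (NP WT) mice, 1 point per mouse numbered by replicate, with mean ± SD (n = 4) as line and bar. Nr3c2 and Klf9 are lower and Hsd11b1 higher in most lactating mice, while nulliparous wild-type 3 stands at the top of its group for Fkbp5, Sgk1, Tsc22d3, Zbtb16 and Klf9.

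Over the 8 genes, 4 were called in knockout lactation, 1 higher and 3 lower, and 3 in wild-type lactation, 1 higher and 2 lower. These shares are near the background of 44.1% and 50.3% of all genes called, so the number of calls is no result about the group. The median log2 difference was -0.39 in knockouts and -0.20 in wild-types, against 0.061 and 0.10 over all genes tested. Hsd11b1 and Klf9 were called in both genotypes, Nr3c2 in wild-types, and Tsc22d3 and Zbtb16 in knockouts. No interaction was called for any of the 8, so no gene was shown to respond differently by genotype. Slide as a block left the counts at 4 and 3. The slides taken alone each hold 2 mice per group. Slide 1 alone called 3 of the 8 in knockouts and 4 in wild-types, and 6168 and 5561 of all genes. Slide 2 alone called 0 of the 8 in limma in both genotypes, and 0 genes in knockouts and 86 in wild-types, while 2057 and 4400 genes, 1 and 2 of the 8 among them, had an unadjusted p under 0.05.

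**Figure D3:**
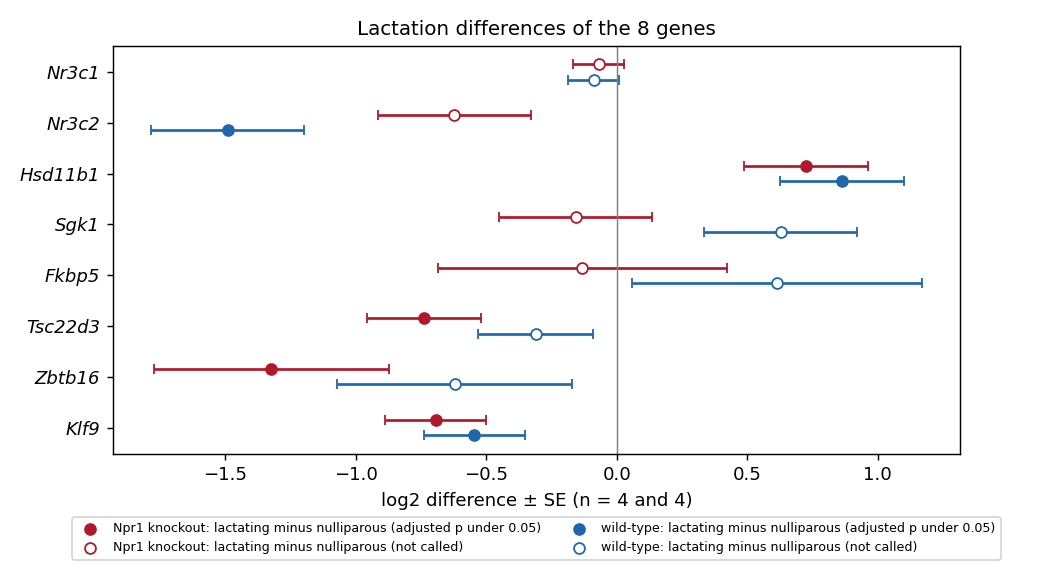
Lactating minus nulliparous log2 differences ± SE of the 8 genes in knockout mice (red) and wild-type mice (blue), n = 4 and 4; filled points have an adjusted p under 0.05. Hsd11b1 lies to the right of 0 and Klf9 to the left in both genotypes, and the intervals of Fkbp5 are the widest.

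Loss of Npr1 was not accompanied by a called difference in any of the 8 genes in either state. Among nulliparous mice limma called 14 genes (0.0996%), and 1213 had an unadjusted p under 0.05, 1 of them among the 8. That gene was Sgk1, at 3.98 ± 0.26 in nulliparous knockouts against 2.98 ± 0.82 in nulliparous wild-types (SD, n = 4), a difference of 1.00 ± 0.29 (2.00-fold, unadjusted p = 0.00402, adjusted p = 0.368). All 4 knockouts lay above wild-types 1, 2 and 4, and wild-type 3 lay within their range. Without that mouse the difference was 1.39 and was called (adjusted p = 0.0024), as it was with array weights (1.33, adjusted p = 0.0122). The Sgk1 comparisons of genotype and of wild-type lactation share the nulliparous wild-type arrays and are not independent of each other.

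Among lactating mice limma called 28 genes (0.199%) between the genotypes, and 1283 had an unadjusted p under 0.05, 0 of them among the 8. The largest differences were those of Nr3c2, at -1.86 ± 0.70 in lactating knockouts against -2.44 ± 0.31 in lactating wild-types (0.58 ± 0.29, adjusted p = 0.594), and of Fkbp5 (-0.56 ± 0.55, adjusted p = 0.871). For Nr3c2 the knockout group's spread came mostly from lactating knockout 2. Nr3c1, Klf9 and Hsd11b1 differed by 0.09, -0.03 and -0.12. The interaction of genotype with lactation was called for 13 genes (0.0925%), with 896 at an unadjusted p under 0.05 and 0 of these among the 8. For Sgk1 it was -0.78 ± 0.41 (adjusted p = 0.80), and -1.30 (adjusted p = 0.033) when nulliparous wild-type 3 and nulliparous knockout 4 were both left out, a choice made after seeing the data.

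Within groups, 8 of the 10 pairs among the 5 target genes varied together from mouse to mouse. With each level taken as its deviation from the group mean, Fkbp5 and Zbtb16 correlated at r = 0.834 over the 16 mice (exact permutation within groups, two-sided, p = 0.00124, adjusted 0.0168; rho = 0.862, p = 0.00106, adjusted 0.0192). Without the 2 mice farthest in Fkbp5 it was 0.822, without nulliparous knockout 4 it was 0.832, and within slides 1 and 2 it was 0.72 and 0.928. Of the 28 pairs among the 8 genes, 9 had an adjusted p under 0.05 for r, 8 of them positive and all 8 among the 5 targets, and 6 of the 8 also passed on ranks. Tsc22d3 and Zbtb16 correlated at 0.779, Zbtb16 and Klf9 at 0.744, Fkbp5 and Klf9 at 0.727, and Tsc22d3 and Klf9 at 0.707. Sgk1 correlated at 0.584 with Klf9 and 0.713 with Fkbp5. The pairs of Fkbp5 with Sgk1 and with Tsc22d3 did not pass on ranks (adjusted p of 0.121 and 0.0678). The pairs of Sgk1 with Tsc22d3 (r = 0.59, exact permutation, adjusted p = 0.0504) and with Zbtb16 (r = 0.388, adjusted p = 0.169) did not pass on r. Without the 2 farthest mice the 8 positive values were 0.597 to 0.822, and within slides 0.485 to 0.961. All values of a mouse come from 1 array and share its scaling. Pairs of other genes were not put through the same test. The count of pairs is thus not shown to be particular to the target genes.

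No correlation between a receptor and a target passed the test, with Nr3c1 read by its brighter probe. The dimmer probe was not put through this test. Across the same deviations, Nr3c1 correlated with the 5 targets at values between -0.615 (Sgk1) and 0.025 (Zbtb16), and Nr3c2 at values between -0.245 (Sgk1) and -0.044 (Klf9), none with an adjusted p under 0.05. Within slides these could differ in sign, as for Nr3c1 with Zbtb16 at 0.967 on slide 1 and -0.813 on slide 2. The ninth pair was negative, Nr3c2 with Hsd11b1 at r = -0.566 (p = 0.0143, adjusted 0.0444), with rho = -0.515 (p = 0.0692, adjusted 0.161) not passing. It was -0.651 without the 2 farthest mice, -0.498 without nulliparous knockout 4, and -0.84 and -0.917 within slides.

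There were 3 mice that stood at one end of their group for all 5 targets. Nulliparous wild-type 3 was the highest of its group for Fkbp5, Sgk1, Tsc22d3, Zbtb16, Klf9 and Hsd11b1 and the lowest for Nr3c1 and Nr3c2, and exceeded the mean of the other 3 by 2.11 for Fkbp5 and 1.58 for Sgk1. Lactating wild-type 3 was the lowest of its group for the same 6 genes, by 2.08 for Zbtb16 and 1.66 for Fkbp5 below the mean of the other 3. Lactating knockout 1 was the highest of its group for the 5 targets. Clock genes also differed between mice, as given below, and the labels give no hour of sampling, so their part in this variation was not tested.

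**Figure D4:**
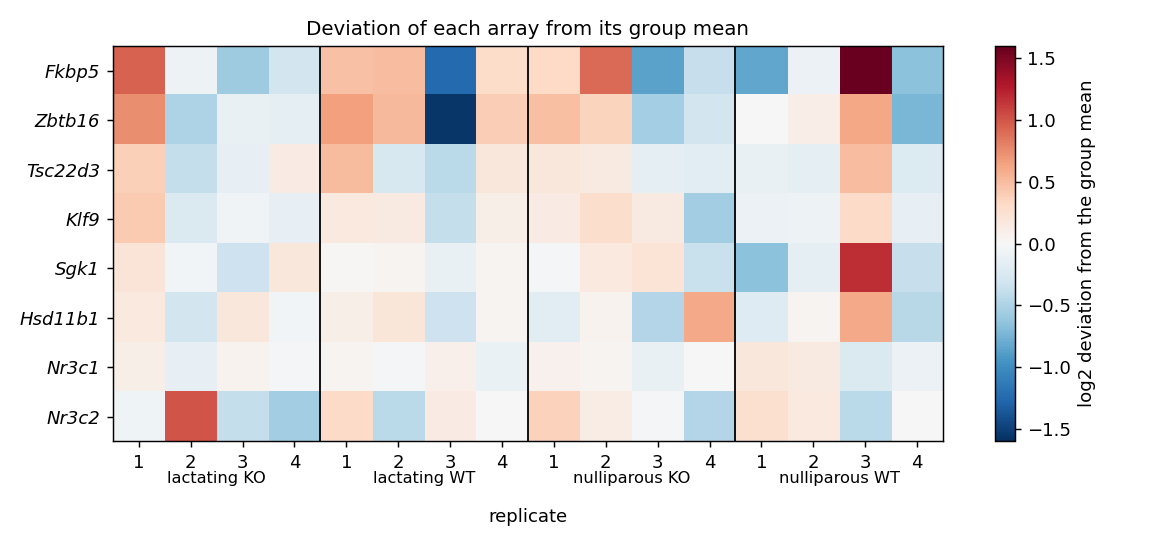
Deviation of each array's level from its group mean (log2, red above and blue below) for the 8 genes (rows) in the 16 mice (columns, by group and replicate). Nulliparous wild-type 3 and lactating knockout 1 are above their group means, and lactating wild-type 3 below, for all 5 target genes.

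Among 30 other genes known to rise with glucocorticoids, all of them tested, 3 were higher and 8 lower in knockout lactation, and 7 were higher and 6 lower in wild-type lactation, with medians of -0.22 and 0.05. The list did not move one way. The counts in this and the following lists are read against the 44.1% of all genes called in knockout lactation (25.5% higher, 18.6% lower) and the 50.3% called in wild-type lactation (31.8% higher, 18.5% lower), and a share near these is no result about a list. With median centring, 5305 of 14060 genes were higher and 1395 lower in knockouts, and 6056 higher and 1487 lower in wild-types. Median-centred counts of a list are read against these. In knockouts Angptl4, an inhibitor of lipoprotein lipase, fell by 2.54 ± 0.40 (adjusted p = 0.000649), Pdk4, which restrains glucose oxidation, by 2.14 ± 0.46 (adjusted p = 0.00264), and the stress gene Gadd45b by 1.63 ± 0.36 (adjusted p = 0.00312). In wild-types the cell cycle inhibitor Cdkn1a rose by 2.53 ± 0.59 (adjusted p = 0.00288), the prostaglandin D synthase Ptgds by 2.18 ± 0.27 (adjusted p = 8.84e-05), and the metallothionein Mt2 by 1.98 ± 0.60 (adjusted p = 0.0135). The genes named are those with the largest called differences in each genotype. The interaction was called for 0 of the 30, so no opposite response by genotype was shown. Their summed signal, relative to the 75th percentile, was 1292 to 1682 in lactating knockouts, against 1152 to 1807 in nulliparous knockouts, and 1375 to 2117 in lactating wild-types, against 766 to 1782 in nulliparous wild-types. Both pairs of ranges overlapped, with medians of 1504 against 1308 in knockouts and 1726 against 832 in wild-types. Without nulliparous wild-type 3, 10 of the 30 were higher and 5 lower in wild-type lactation.

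Of 20 genes linked to aldosterone and the mineralocorticoid receptor, 15 were tested, of which 4 were higher and 2 lower in knockout lactation, and 6 higher and 2 lower in wild-type lactation (medians -0.05 and 0.20). With median centring 6 were higher and 1 lower in knockouts, and 9 higher and 1 lower in wild-types. The summed signal of the 20 was 248 to 290 in lactating knockouts, against 273 to 286 in nulliparous knockouts. In wild-types it was 314 to 376 in lactating mice, against 270 to 278 in nulliparous mice. In knockouts Rgs2, a regulator of G protein signalling, fell by 1.25 ± 0.19 (adjusted p = 0.000604), while the lipocalin Lcn2 rose by 1.24 ± 0.41 (adjusted p = 0.0239) and the lectin Lgals3 by 0.85 ± 0.16 (adjusted p = 0.00138). In wild-types the matricellular gene Ccn2 rose by 1.91 ± 0.20 (adjusted p = 4.85e-05), Lcn2 by 1.78 ± 0.41 (adjusted p = 0.00263), and the T-type calcium channel gene Cacna1h fell by 1.67 ± 0.65 (adjusted p = 0.0452). Scnn1a, the alpha subunit of the aldosterone-regulated sodium channel, was above background on 16 arrays, against 2 for Scnn1b and 1 for Scnn1g, its partner subunits.

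Chaperones that hold the receptors were called in 7 of 15 cases, 3 higher and 4 lower, in knockout lactation and in 8 of 15, 7 higher and 1 lower, in wild-type lactation (medians 0.061 and 0.30). With median centring these counts were 6 higher and 0 lower in knockouts and 7 higher and 0 lower in wild-types, so the 4 lower calls in knockouts depended on the scaling. Lower calls over all genes also fell with that scaling, from 2612 to 1395 in knockouts. Fkbp4, the co-chaperone that opposes Fkbp5, rose in both, by 0.60 ± 0.12 in knockouts (adjusted p = 0.00176) and by 0.59 ± 0.12 in wild-types (adjusted p = 0.00115). Hsp90aa1 rose by 0.69 ± 0.14 and Dnaja1 by 0.62 ± 0.24 in wild-types (adjusted p of 0.00139 and 0.0407). In knockouts Hspa8 fell by 0.34 ± 0.08 (adjusted p = 0.00458), and Ppid, another co-chaperone, rose by 0.25 ± 0.09 (adjusted p = 0.0331).

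Of 16 coactivators and corepressors, 2 were higher and 4 lower in knockout lactation, and 2 higher and 6 lower in wild-type lactation (medians -0.16 and -0.08), and with median centring 2 were higher and 3 lower in each genotype. The steroid receptor coactivator Ncoa3 fell by 1.00 ± 0.17 in knockouts (adjusted p = 0.000906) and by 0.89 ± 0.17 in wild-types (adjusted p = 0.000861). Ppargc1a, a coactivator of mitochondrial genes, fell by 1.17 ± 0.19 in knockouts (adjusted p = 0.00067) and by 0.60 ± 0.19 in wild-types (adjusted p = 0.0155). The acetyltransferase gene Crebbp fell by 0.73 ± 0.14 in knockouts (adjusted p = 0.00137) and by 0.57 ± 0.14 in wild-types (adjusted p = 0.00329).

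Around Sgk1, 9 of 10 kinases, activators and substrates were tested, with 3 higher and 2 lower in knockout lactation and 4 higher and 1 lower in wild-type lactation (medians -0.06 and -0.03). Mtor, a kinase of the complex that activates SGK, rose by 0.50 ± 0.15 in knockouts (adjusted p = 0.0136) and 0.56 ± 0.15 in wild-types (adjusted p = 0.00572). In knockouts its partner Rictor fell by 0.63 ± 0.12 (adjusted p = 0.00126) and the kinase gene Wnk1 rose by 0.48 ± 0.13 (adjusted p = 0.0092). In wild-types Sgk3, a paralogue of Sgk1, rose by 0.87 ± 0.15 (adjusted p = 0.000422) and Pdpk1, the activating kinase, by 0.61 ± 0.11 (adjusted p = 0.000535). Sgk2 was above background on 0 arrays.

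Of 16 close relatives of the 8 genes by family, 13 were tested, with 2 higher and 4 lower in lactation in each genotype (medians -0.38 in knockouts and -0.03 in wild-types). Tsc22d1, a relative of Tsc22d3, went the other way, rising by 0.89 ± 0.21 in knockouts (adjusted p = 0.00393) and 0.99 ± 0.21 in wild-types (adjusted p = 0.00142). Klf3 fell by 0.63 ± 0.11 in knockouts (adjusted p = 0.00108), and Zbtb20 by 0.59 ± 0.10 in wild-types (adjusted p = 0.000383). None of the lists from the glucocorticoid-responsive genes to these relatives had a member called between genotypes or for the interaction.

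Of 18 circadian clock genes, 16 passed the filter, with 2 higher and 6 lower in knockout lactation, 3 higher and 7 lower in wild-type lactation (medians -0.33 and -0.68), and none called between genotypes. With 8 and 10 of 16 called, the totals are near the background of 44.1% and 50.3%. The calls leaned lower, with 6 and 7 of 16 lower, against 18.6% and 18.5% of all genes. With median centring the counts were 2 higher and 3 lower in knockouts and 3 higher and 5 lower in wild-types. Over all 14060 genes, 1395 and 1487 were lower with that scaling. Arntl, the positive arm of the clock, rose by 2.31 ± 0.81 in knockouts (adjusted p = 0.0326) and 2.91 ± 0.81 in wild-types (adjusted p = 0.00861). Per3, of the negative arm, fell by 1.36 ± 0.49 in knockouts (adjusted p = 0.0363) and 2.35 ± 0.49 in wild-types (adjusted p = 0.00142). Hlf, a clock output factor, fell by 1.40 ± 0.35 in knockouts (adjusted p = 0.00579) and 1.71 ± 0.35 in wild-types (adjusted p = 0.00121). The summed signal of the list was 144 to 242 in lactating knockouts, against 307 to 327 in nulliparous knockouts, and 91.0 to 280 in lactating wild-types, against 238 to 349 in nulliparous wild-types. Whether the hour of sampling differed is not given, and its part in these differences was not tested.

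In whole ventricle fewer cells of a type and less RNA per cell cannot be told apart. Of 10 macrophage markers, 10 were higher in knockout and 9 in wild-type lactation, and none was lower. Their summed signal was 58.3 to 70.0 in lactating knockouts, against 23.4 to 46.4 in nulliparous knockouts, and 50.5 to 59.2 in lactating wild-types, against 26.1 to 31.1 in nulliparous wild-types, with 9 of the 10 above background on all arrays. Of 10 fibroblast markers, 6 were higher and 1 lower in knockouts, and 5 higher and 2 lower in wild-types. Of 10 cardiomyocyte markers, 2 were higher and 7 lower in knockouts, and 2 higher and 3 lower in wild-types, but with median centring 3 were lower in knockouts and 0 in wild-types. Of 9 endothelial markers, 3 were higher and 2 lower in knockouts, and 2 higher and 1 lower in wild-types, near or below the background of calls. All 7 tested cell division genes were higher in knockouts and 5 of the 7 in wild-types, with a summed signal of 15.5 to 23.9 in lactating knockouts, against 6.25 to 17.2 in nulliparous knockouts, and 14.8 to 20.9 in lactating wild-types, against 7.58 to 9.87 in nulliparous wild-types. Of 4 tested atrial markers, 1 was higher and 3 lower in knockouts, and 1 higher and 2 lower in wild-types. Of 4 tested red cell markers, 3 were higher in knockouts and 2 in wild-types, and none was lower. Of 6 tested adipocyte markers, 3 were lower in knockout lactation and 2 higher in wild-type lactation, and between genotypes 5 were lower in lactating knockouts and 2 in nulliparous knockouts. Of 7 smooth muscle markers, 1 was higher and 4 lower in knockouts, and 1 higher and 2 lower in wild-types, and of 6 tested lymphocyte markers 1 was higher in knockouts, and 1 higher and 2 lower in wild-types. Lep and Bmp10 were above background on 0 arrays, but each of the other adipocyte and atrial markers was so on 10 to 16 arrays. The part of these cell types in the differences of Nr3c2, Hsd11b1 and the target genes was not tested.

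Across the 16 mice, each of the 8 genes had near companions among 12171 genes, which are the 12630 above background on all arrays without numbered gene models (symbols with Gm, LOC or Rik). Klf9 was closest to Lipa (Pearson r = 0.967), Nfkbia (0.965) and Zc3h3 (0.959), and Tsc22d3 to Fzd4 (0.961), Fbxo7 (0.945) and Aqp1 (0.922). Zbtb16 was closest to Xdh (0.953), Slc43a3 (0.944) and Fam214a (0.928), and Fkbp5 to Bcl2l1 (0.926), Fam168a (0.91) and Sult1a1 (0.91). Hsd11b1 followed Wdr26 (0.943), Lyve1 (0.94) and Gclm (0.938), and Nr3c2 followed Gk5 (0.94), Oard1 (0.909) and AU018091 (0.906). The lowest top values were those of Sgk1, with Cldn15 (0.887), Csrnp1 (0.849) and Map3k6 (0.838), and of Nr3c1, with Ctnna1 (0.86), Ctbp1 (0.817) and Dnajc9 (0.803). These values include the difference between groups, each is the highest of 12171, and they describe likeness of pattern only.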

How the data were processed

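Ventricular RNA (200 ng per mouse) was labelled with Cy3 and hybridised to 16 one-colour Agilent arrays, per the labels' protocols. The authors' scanner files, made with Agilent Feature Extraction 10.7.3.1, give each spot a linear intensity that is background-subtracted and detrended but not scaled to other arrays, per the file headers. A probe table with log2 values was deposited too. On 24444 bright probes it followed (r and slope 1 after rounding, median offset -0.0261 to 0.0187 per array) the log2 signal less the 75th percentile and the nulliparous wild-type mean, so scale, centring and direction are known. Its column medians were -0.382 to 0.0318, and it was used as an alternative.

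Spots that were not controls (59305 of 62976) were averaged into 55681 probes without the 112 to 421 outlier spots per array. RefSeq accessions named 28026 probes (27793 of 28167 with an NM_ or NR_ accession) through a GRCm38.p6 gene table, used for names because the array headers give mm9. Precision is limited by the number of arrays, and 48.2% to 58.6% of probes exceeded background. A gene was tested if its brightest probe did so on all arrays of a group.

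Means of the 4 groups were fitted with limma 3.58.1 (R 4.3.3, data.table version 1.17.8) over all arrays, and a Benjamini-Hochberg adjusted p under 0.05 counted as a call. The script was tested on simulated data. Python 3.11.15, numpy 2.4.6, pandas 2.3.3, scipy 1.17.1 and matplotlib 3.10.9 served for the rest. Named genes were the 8 genes, the 3 called members with the largest difference per pathway list and comparison, and the 3 genes most like each of the 8. The 8 genes and all lists were chosen with earlier results of these data known. Alternatives were normexp (offset 50, on the median spot signals that the files hold), other scalings, filters, probes, variance models, blocks, single slides and left-out arrays.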

Additional observations from a re-analysis of the deposited data

Results flagged for a closer look

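Within a group of 4 arrays, a lone array was sought among 36 sets of levels by the gap to its nearest neighbour as a share of the group's range. Dixon's critical value for 4 arrays was exceeded in 7 sets, and chance gives about 1 in 20. Lactating wild-type 3 was alone at the low end for Fkbp5 (0.886), Sgk1 (0.860), Zbtb16 (0.880) and Klf9 (0.888). For Sgk1 that whole group spans only 3.5 to 3.66. Nulliparous wild-type 3 was alone at the high end for Klf9 (0.900) and Tsc22d3 (0.863). Nulliparous knockout 4 was alone at the low end for the dimmer probe of Nr3c1 (0.842). The 8 genes share their arrays, so these are not 7 independent observations.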

How the results depend on the processing

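The 8 genes were refitted under 34 other settings, of which 3 concerned the probe of Nr3c1 alone and 1, fitting only the groups compared, gave no interaction. Of 1247 values, 1148 kept their direction and their side of the threshold, 25 became called, 23 lost their call and 51 changed sign with no call on either side, and no called value changed direction. In knockout lactation the number of the 8 genes called was 0 on slide 2 alone and ran from 2 to 5 with single arrays left out. In wild-type lactation it was 5 with array weights and 0 on slide 2 alone, and ran from 2 to 3 with single arrays left out. Between nulliparous genotypes it was 1, Sgk1, with array weights and with nulliparous knockout 4 and nulliparous wild-type 3 both left out, and ran from 0 to 1 with single arrays left out, being 1 without nulliparous wild-type 3. Between lactating genotypes it was 0 throughout, and for the interaction 1, again Sgk1, with those 2 arrays left out and otherwise 0. Slide 1 alone, with as many mice as slide 2, gave 3 and 4 called genes in knockout and wild-type lactation. The causes were not tested. Centring on the array median raised the median difference of all genes from 0.061 to 0.242 in knockout and from 0.10 to 0.283 in wild-type lactation, and the share of calls that were higher from 57.9% to 79.2% and from 63.2% to 80.3%. With no filter on dim probes that share was 46.0% of 9364 calls in wild-type lactation. Genotype calls over all genes ranged from 5 to 235 among nulliparous and 4 to 204 among lactating mice, and interaction calls from 1 to 70, the highest with array weights. Whether replicate numbers pair the mice was left unsettled. Of 24 same-number pairs 8 correlated above 0.1, against 4 of 24 other-number pairs on the same slide and 6 of 48 across slides. Median correlations were 0.030, 0.011 and -0.033, and 8 of 16 arrays correlated best with their own number. The replicate block gave 4 and 3 called genes of the 8 in knockout and wild-type lactation and changed no call. Over all genes it gave 6185 and 7073 calls, 9 between nulliparous genotypes, against 14 without the block. The dimmest of the 8, Nr3c2, is the one whose size depended most on background correction.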
